A study of Rattus norvegicus with 2 samples.

Results

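The genes described here are 45 vasoactive receptors, their processing enzymes and the proteins of cyclic GMP signalling, a fixed list of names that was matched to the array by RefSeq accession. They include receptors for angiotensin, endothelin, catecholamines, serotonin, vasopressin, bradykinin, natriuretic peptides, adrenomedullin, nucleotides, neuropeptides and sphingosine 1-phosphate. Of the 45 genes, 44 had a probe on the array and 41 were well above background on at least 1 array, out of 11902 genes with a value in all. S1pr3 was matched to no probe, and Agtr2, Htr1d and Bdkrb1 were not well above background in either library. Gene expression was measured on 2 one-colour Agilent arrays of rat (Rattus norvegicus) intracranial arterial tissue. One library came from an aneurysm lesion 3 weeks after its induction (1 array), and the other from intracranial arterial wall that had no treatment and was labelled normal (1 array). The sources used here do not give the method of induction, the rats' strain, sex or age, or how many animals gave RNA to each library. With 1 array a group there is no replicate, so no p-value is given and every difference describes these 2 libraries only.

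Vascular tone is set by receptors on smooth muscle and endothelium. Agonists such as angiotensin, noradrenaline, serotonin and vasopressin act mostly through receptors that raise calcium and contract smooth muscle, while adrenomedullin, calcitonin gene-related peptide (CGRP) and vasoactive intestinal peptide (VIP) raise cyclic AMP and relax it. Nitric oxide and the natriuretic peptides relax it through cyclic GMP, which activates the kinase PRKG1 and is degraded by phosphodiesterases such as PDE5A. Many of these receptors are also made by neurons, glia, leukocytes and liver, so bulk tissue does not show which cell carried a transcript. In bulk RNA, fewer cells of a type and less RNA per cell cannot be told apart.

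Levels are given as the signal in percent of the 75th percentile of the same array, and differences as log2 aneurysm minus control. The value after ± is the spot error. It comes from repeat spots within an array, pooled over probes of like signal, so it is not the spread of the gene's own spots. It holds no variation between animals. Actg2, Pi16 and Drd1 had 1 spot per array, so their spot error comes wholly from other probes. Levels of different genes are not compared, because each comes from its own probe. Markers of the arterial wall were present in both libraries. Of 10 smooth muscle markers 9 were measured, 7 above 0 and 2 below (median 0.18). Actg2 was at 0.52 ± 0.07, Cnn1 at 0.51 ± 0.08, Des at 0.49 ± 0.06 and Lmod1 at 0.37 ± 0.11, while the defining markers Acta2 and Myh11 were at -0.01 ± 0.05 and 0.08 ± 0.05. Their summed signal was 150 times the 75th percentile in the aneurysm library and 128 times in the control library. Of 12 endothelial markers 10 were measured (summed signal 18.9 times in the aneurysm library and 17.6 times in the control). Fibroblast markers were above 0 in 6 of 7 cases (median 0.40), with Lum at 0.88 ± 0.11, Pi16 at 0.83 ± 0.08 and Dcn at 0.55 ± 0.02. Markers of tissue other than vessel also differed. All 10 measured hepatocyte genes were at least 2-fold lower in the aneurysm library. Tf and Ttr, which oligodendrocytes and choroid plexus also make, had a summed signal of 24.6 times the 75th percentile in the aneurysm library against 64.9 times in the control, and the other 8 had 0.605 times against 22.6 times. Also at least 2-fold lower were 5 of 8 oligodendrocyte genes (summed signal 86.3 times in the aneurysm library, 169 times in the control) and 3 of 6 pituitary genes (2.44 times in the aneurysm library, 10.3 times in the control). Their part in the differences below was not tested.

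Among the 41 measured genes, 7 had at least 1.5 times the control level in the aneurysm library and 0 were lower by that much. Those 7 were the VIP receptor Vipr1, the nucleotide receptors P2ry1 and P2rx1, the angiotensin receptor Agtr1b, the adrenergic receptor Adra2a, the serotonin receptor Htr1b and the substance P receptor Tacr1. Over all genes, 4.25% were higher by 1.5-fold or more and 8.43% lower. That split depends on the scaling: it was 14.2% higher and 4.87% lower with spike-in scaling, 6.10% and 6.87% with quantile normalization, and 5.63% and 7.10% with loess centring. Htr1b and Tacr1 passed the background flag in the aneurysm library only, and the other 5 on both arrays. Vipr1 and Htr1b differed by 2-fold or more, as did, upward, 0.882% of all genes, and 0 of the 41 were at least 2-fold lower, against 3.91% of all genes. The median over the 41 genes was 0.02, and over all genes 0.001. The middle of the set thus lay at the middle of the array, with 21 genes above 0 and 20 below. The quartiles were -0.15 and 0.36, against -0.21 and 0.19 for all genes. Because the genes were listed with results of these data known, these shares are a description.

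**Figure D1:**
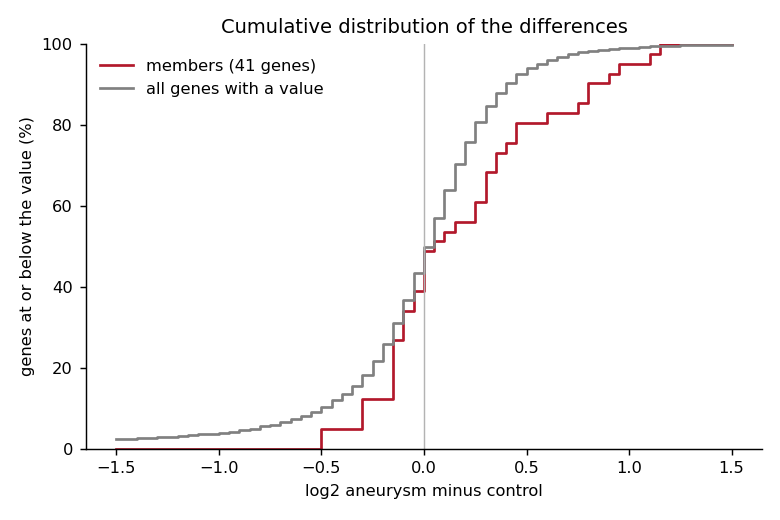
Cumulative share of genes (vertical axis, percent) at or below each log2 difference, aneurysm minus control (horizontal axis, steps of 0.05), for the 41 measured vasoactive genes and for all 11902 genes with a value. The curve of the vasoactive genes lies below that of all genes at each step from -1.5 to 1.1, with 12.2% against 25.8% at -0.2. The curves come near each other at 0, with 48.8% against 49.8%.

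The promoters of the 3 genes with the highest differences among those with every spot well above background on both arrays (Vipr1, P2ry1, P2rx1) and of the 2 lowest genes (Mas1, Adra1d) are shown so that the ends of the distribution can be compared in sequence. They are RefSeq promoters of build GRCr8, 250 bases before to 50 after the annotated start, printed 5′ to 3′ as RefSeq gives them. Capitals mark GC boxes (GGGCGG) and CACCC boxes (CACCC), each searched on both strands; 1 base is shared by a GC box and a CACCC box in P2ry1.
Vipr1 (chr8:130187511-130187810, plus strand): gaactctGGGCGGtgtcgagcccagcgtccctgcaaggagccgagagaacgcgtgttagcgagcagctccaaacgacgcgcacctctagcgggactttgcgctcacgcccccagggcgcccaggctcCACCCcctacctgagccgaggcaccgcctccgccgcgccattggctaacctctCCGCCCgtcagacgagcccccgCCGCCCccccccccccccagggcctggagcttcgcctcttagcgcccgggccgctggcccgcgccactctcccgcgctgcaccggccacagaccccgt
P2ry1 (chr2:147391411-147391710, plus strand): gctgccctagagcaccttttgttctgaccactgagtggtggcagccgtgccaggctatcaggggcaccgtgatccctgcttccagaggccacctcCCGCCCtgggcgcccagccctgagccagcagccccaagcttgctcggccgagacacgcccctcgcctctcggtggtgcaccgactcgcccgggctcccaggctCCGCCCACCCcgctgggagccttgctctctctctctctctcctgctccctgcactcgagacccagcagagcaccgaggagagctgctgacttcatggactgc
P2rx1 (chr10:58116857-58117156, plus strand): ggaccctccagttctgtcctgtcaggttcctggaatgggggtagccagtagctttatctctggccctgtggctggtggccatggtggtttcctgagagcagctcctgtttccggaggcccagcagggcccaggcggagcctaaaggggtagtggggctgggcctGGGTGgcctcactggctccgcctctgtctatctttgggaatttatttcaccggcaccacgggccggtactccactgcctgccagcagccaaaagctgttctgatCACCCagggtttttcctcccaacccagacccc
Mas1 (chr1:50427840-50428139, plus strand): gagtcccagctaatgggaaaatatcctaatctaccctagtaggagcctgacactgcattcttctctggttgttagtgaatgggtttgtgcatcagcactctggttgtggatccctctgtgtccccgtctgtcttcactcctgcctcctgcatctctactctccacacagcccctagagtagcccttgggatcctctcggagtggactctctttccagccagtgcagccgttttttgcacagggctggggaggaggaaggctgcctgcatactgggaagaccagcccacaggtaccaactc
Adra1d (chr3:139262282-139262581, minus strand): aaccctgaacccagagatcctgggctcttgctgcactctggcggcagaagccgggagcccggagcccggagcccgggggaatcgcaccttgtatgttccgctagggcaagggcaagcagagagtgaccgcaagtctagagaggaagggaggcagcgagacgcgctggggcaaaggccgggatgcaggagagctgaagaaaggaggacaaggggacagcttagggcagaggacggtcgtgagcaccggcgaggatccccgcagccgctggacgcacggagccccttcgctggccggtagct
Vipr1 held 3 GC boxes and 1 CACCC box, P2ry1 held 2 and 1, and P2rx1 held 0 and 2, while Mas1 and Adra1d held 0 of each. Agtr1b, at 0.80, also held 0 of each, whereas genes below 0 such as Adrb1, with 6 CACCC boxes, and S1pr2, with 1 GC box, held them. A GC box occurred in 33.1% of all 33469 promoters of this length and a CACCC box in 54.9%. Of the 39 vasoactive genes with a promoter in the table, 21 held a GC box and 24 a CACCC box, beside a median GC content of 63.7% for these promoters and 51.7% for all. The core of the cyclic AMP response element (TGACG, both strands) was found in 8 of 39 and in 21.2% of all promoters, the TATA box (TATAAA, both strands) in 4 of 39 and in 14.2% of all. The CArG box of smooth muscle genes was found in 0 of 39 and in 1.64% of all. These matches are letters in a window and show no binding.

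Among the receptors for neuropeptides, Vipr1 encodes a receptor for VIP and for the related peptide PACAP. Its 2 spots stood at 72.71% and 75.04% in the aneurysm library and at 34.01% and 34.99% in the control library. Both aneurysm spots lay above both control spots, and the difference was 1.098 ± 0.08, or 2.14-fold. Among the 7 genes, Vipr1 alone had a value and stayed past 1.5-fold under each of the 11 other ways of processing. It ran from 0.89 with normexp on the median signal to 1.37 with spike-in scaling. Tacr1 stayed past 1.5-fold in the 9 settings that gave it a value. With either normexp its aneurysm level did not exceed the level set for the control, and by rule no value was kept. With only probes well above background on both arrays it was filtered out. Vipr2, the other receptor for both peptides, stood at 20.5% in the aneurysm library and 22.8% in the control (-0.16 ± 0.14).

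Tacr1, the receptor of substance P, was measured by 10 spots. They ran from 1.84% through a median of 2.28% to 2.88% in the aneurysm library, where 8 of 10 passed the background flag. In the control library they ran from 0.718% through 1.25% to 2.30%, and 0 of 10 passed it. The spots of the libraries overlapped. The measured difference was 1.85-fold (0.89 ± 0.28), and it is no strict limit because the control level was not well above background. A gene above background on 1 array only enters the count through the side on which it is high. The neuropeptide Y receptor Npy1r stood at 31.4% in the aneurysm library and 26.2% in the control (0.26 ± 0.12).

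All 4 nucleotide receptors of the set were higher in the aneurysm library, under each way of processing. Other nucleotide receptors, outside the set and well above background on both arrays, went both ways. P2rx4 was at 0.58 ± 0.26 and P2ry14 at 0.33 ± 0.26, while P2ry12 was at -0.39 ± 0.06 and P2ry13 at -0.17 ± 0.27. P2ry1, a G protein-coupled receptor for ADP, stood at 19.0% and 19.1% in its aneurysm spots and at 8.44% and 12.2% in its control spots. The libraries did not overlap, although the control spots differed from each other more than the aneurysm spots did, and the difference was 0.91 ± 0.17 (1.88-fold). P2rx1, the ATP-gated cation channel through which sympathetic ATP contracts arteries, stood at 53.6% and 55.1% in the aneurysm spots and at 30.4% and 34.0% in the control spots (0.76 ± 0.11, 1.69-fold). A second P2rx1 probe ran the same way with overlapping spots, at 27.4% and 29.3% in the aneurysm library and 14.4% and 29.3% in the control (0.47). P2ry6, a receptor for UDP, was measured by 10 spots. They ran from 200% through 210.1% to 225% in the aneurysm library and from 148% through 159% to 176% in the control. Its spots were fully separated (0.40 ± 0.03). P2ry2, a receptor for ATP and UTP, differed by 0.14 ± 0.11. P2rx1 and P2ry1 are also platelet receptors, and the platelet genes Pf4 and Gp9 were at -0.27 ± 0.04 and -0.21 ± 0.39. P2ry6 is also a receptor of macrophages, of which 7 of 8 markers were higher (summed signal 64.2 times the 75th percentile in the aneurysm library, 53.9 times in the control). The part of these cells in the result was not tested.

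**Figure D2:**
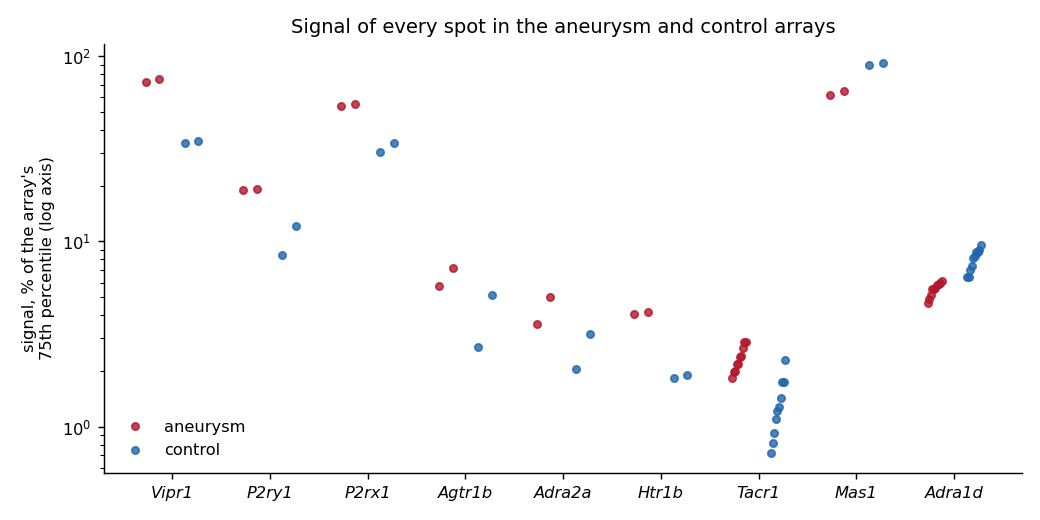
Signal of every spot (points; vertical log axis, percent of the array's 75th percentile) of the 7 genes at least 1.5-fold higher and of the 2 lowest genes, in the aneurysm library (red, left) and the control library (blue, right). The spots of Vipr1 stand well apart, at 72.71% and 75.04% in the aneurysm library against 34.01% and 34.99% in the control library, whereas those of Tacr1 overlap.

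In the renin-angiotensin system, ACE converts angiotensin I to angiotensin II, which acts on AT1 receptors, of which rodents have a pair of genes. Agtr1b spots stood at 5.76% and 7.23% in the aneurysm library and at 2.71% and 5.11% in the control library, where 1 of 2 spots was well above background. They did not overlap, but the spot error was wide (0.80 ± 0.48). Agtr1a, measured by 10 spots, ran from 6.08% through 7.37% to 8.75% in the aneurysm library and from 5.56% through 6.23% to 7.67% in the control. Its spots overlapped, with a difference of 0.21 ± 0.12. The Agtr1a and Agtr1b transcripts are close copies and probe sequences were not used here, so the assignment between them is uncertain. Ace stood at 90.1% in the aneurysm library and 75.5% in the control (0.26 ± 0.07), and its second probe, with 1 spot per array, differed by 0.60. Mas1, the receptor of angiotensin-(1-7), ran the other way. Its spots stood at 62.0% and 65.2% in the aneurysm library and at 89.6% and 91.3% in the control (-0.51 ± 0.07), and it was lower under each way of processing. Mas1 is well known as a brain transcript, and 6 of 9 measured neuron markers were lower (summed signal 4.08 times the 75th percentile in the aneurysm library, 5.66 times in the control). Among striatal neuron markers, 7 of 8 were higher (summed signal 7.31 times in the aneurysm library, 5.37 times in the control). The part of brain tissue in the Mas1 difference was not tested.

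Of the 7 adrenergic receptors, 5 were below 0 and 2 above. Adra1d, an alpha receptor that contracts large arteries, had 10 spots that ran from 4.66% through 5.59% to 6.13% in the aneurysm library and from 6.43% through 8.23% to 9.51% in the control. Every aneurysm spot lay below every control spot (-0.52 ± 0.12), and it was lower under each way of processing. Adrb1, the main beta receptor of the heart, stood at 7.03% in the aneurysm library and 8.77% in the control (-0.32 ± 0.20). Adra1b was at -0.19 ± 0.06, Adra1a at -0.18 ± 0.27 and Adra2b at -0.15 ± 0.09; these 3 turned above 0 with spike-in scaling, at 0.08, 0.09 and 0.12. Adra1b is abundant in rat liver, and the part of the lower hepatocyte genes (median -4.27) in its value was not tested. The 2 receptors above 0 are the presynaptic inhibitory receptors Adra2a and Adra2c, both with 1 of 2 control spots well above background. Adra2a stood at 3.60% and 4.99% in the aneurysm spots and at 2.04% and 3.16% in the control spots (0.74 ± 0.49). Adra2c stood at 3.26% and 3.28% in the aneurysm spots, between its control spots at 1.44% and 3.46% (0.55 ± 0.56).

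Serotonin, vasopressin and bradykinin receptors were dim on both arrays. Htr1b, a serotonin receptor that constricts cranial arteries and is a target of the triptans, stood at 4.05% and 4.16% in the aneurysm library, where both spots were well above background. Its control spots stood at 1.84% and 1.90%, and 0 of 2 passed the background flag. The measured difference was 2.20-fold (1.14 ± 0.54), and it is no strict limit because the control level was not well above background. With normexp, whose added offset shrinks dim differences by construction, it was at 0.10 on the processed signal and 0.00025 on the median signal. Htr1b and Tacr1 are also receptors of neurons. Of 9 measured neuron markers 6 were lower (summed signal 4.08 times the 75th percentile in the aneurysm library, 5.66 times in the control). Among striatal neuron markers 7 of 8 were higher, while Drd1 was at -2.72 ± 0.52 and not well above background in the aneurysm library. The summed striatal signal was 7.31 times the 75th percentile in the aneurysm library and 5.37 times in the control. The part of neurons in the result was not tested. Htr2a, the main contractile serotonin receptor, was at 0.07 ± 0.39 and Htr2b at -0.17 ± 0.52. Avpr1a, the vasopressor receptor of vasopressin, had 8 spots in the aneurysm library after 2 outliers were left out and 10 in the control, and differed by -0.04 ± 0.12. Bdkrb2, the constitutive bradykinin receptor, was at -0.31 ± 0.42.

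The adrenomedullin and CGRP receptor is the receptor CALCRL joined with a RAMP protein, which sets its ligand: RAMP1 makes a CGRP receptor, RAMP2 and RAMP3 make adrenomedullin receptors. Adm, which encodes adrenomedullin, had 10 spots from 580.1% through 598% to 630.1% in the aneurysm library and from 445% through 464% to 514% in the control. The spots did not overlap (0.35 ± 0.03, 1.27-fold). Ramp2 stood at 213% and 224% in the aneurysm spots and at 159% and 162% in the control spots (0.44 ± 0.06, 1.36-fold). Ramp1 stood at 1277% and 1408% in the aneurysm spots and 1040.2% and 1186% in the control spots (0.27 ± 0.05), and its second probe differed by 0.34. These 3 genes were higher under each way of processing. Ramp3 was at 0.36 ± 0.23 with overlapping spots, and at -0.09 and -0.13 with normexp on the processed and on the median signal. Calcrl itself was at -0.10 ± 0.27, a spot error that spans 0, and it stood at 0.07 after quantile normalization and 0.17 after spike-in scaling.

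All 8 genes of the natriuretic peptide receptors and the cyclic GMP core differed by less than 1.5-fold. NPR1 and NPR2 are receptors that make cyclic GMP themselves, and NPR3 clears the peptides. Npr1 had 10 spots from 592% through 643% to 682% in the aneurysm library and from 696% through 713% to 763% in the control. They did not overlap, with a difference of -0.16 ± 0.03, which was 0.11 with spike-in scaling. Npr2 had 9 spots on each array, overlapping between 184% and 217% in the aneurysm library and between 186% and 212% in the control (0.02 ± 0.03). Npr3 differed by -0.05 ± 0.14. Gucy1a1 and Gucy1b1 encode the subunits of the soluble guanylate cyclase that binds nitric oxide. Gucy1a1 stood at 41.03% in the aneurysm library and 44.0% in the control (-0.10 ± 0.09). Gucy1b1 spots stood at 28.4% and 40.2% in the aneurysm library and at 28.5% and 28.6% in the control (0.25 ± 0.11), and its second probe was at -0.27, so no direction is given for it. Prkg1, the kinase activated by cyclic GMP, was at -0.04 ± 0.39. Pde5a, which degrades cyclic GMP, was at -0.11 ± 0.06, and Pde3a, which cyclic GMP inhibits, at -0.03 ± 0.19. With spike-in scaling all 4 of Gucy1a1, Prkg1, Pde5a and Pde3a were above 0, at 0.17, 0.23, 0.16 and 0.24, beside a shift of the median of all genes to 0.27.

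The measured endothelin and sphingosine 1-phosphate genes of the set also differed by less than 1.5-fold. S1pr5, outside the set, was at -0.70 ± 0.29. Ece1, which cleaves the endothelin precursor, was at -0.09 ± 0.09. Ednrb, the endothelin receptor of endothelium and glia, was at -0.07 ± 0.09. S1pr1, the barrier-keeping receptor of endothelium, stood at 145% and 152% in the aneurysm spots and at 117% and 123% in the control spots (0.30 ± 0.06). S1pr2, which signals to contraction, stood at 42.7% and 64.6% in the aneurysm spots, just below its control spots at 64.6% and 65.9% (-0.31 ± 0.09). S1pr1 was higher and S1pr2 lower under each way of processing, but the 2 aneurysm spots of S1pr2 differed from each other by more than the libraries did.

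**Figure D3:**
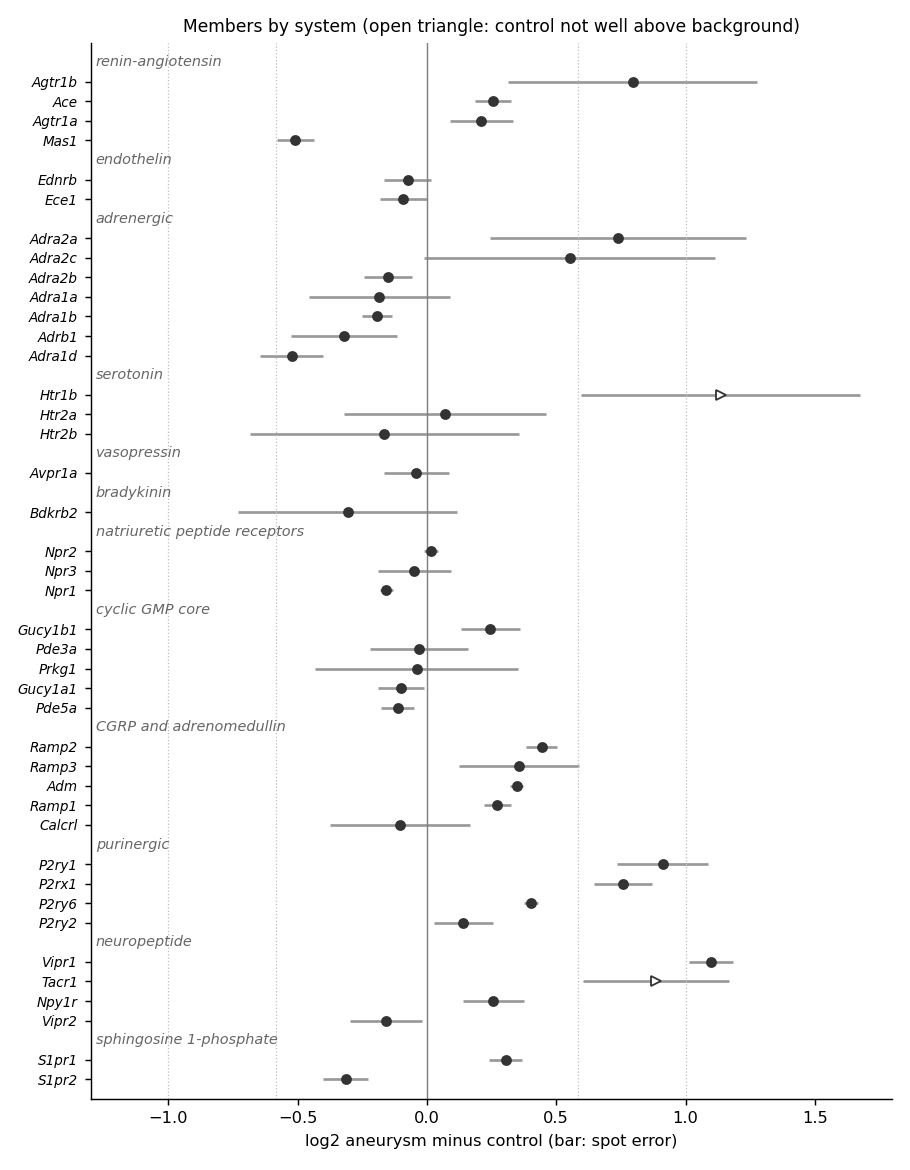
Log2 difference, aneurysm minus control (horizontal axis), of the 41 measured genes, grouped by system. Bars show the spot error, and dotted lines mark 1.5-fold and 2-fold. Open triangles mark genes whose control level was not well above background. All 4 purinergic receptors of the set lie right of 0, and the cyclic GMP core and natriuretic peptide receptors lie close to it.

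The spread was not the same at all signal levels. Of the 7 genes at least 1.5-fold higher, 4 (Agtr1b, Adra2a, Htr1b and Tacr1) were among the 17 genes with a mean log2 level under -3, where 9.12% of all 3420 genes were at least 1.5-fold higher. The other 3 were among the 15 genes between -3 and 0, where 2.90% of 4620 genes were, and 0 of the 9 brighter genes were, against 1.55% of 3862 genes. The 9 bright genes had a median of 0.27, against -0.0014 for all genes that bright. With normexp on the processed signal, 2 of 40 genes with a value were at least 1.5-fold higher, Vipr1 at 0.94 and P2rx1 at 0.62, against 0.985% of all genes under that setting. With normexp on the median signal Vipr1 alone was, at 0.89, against 0.805% of all genes.

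**Figure D4:**
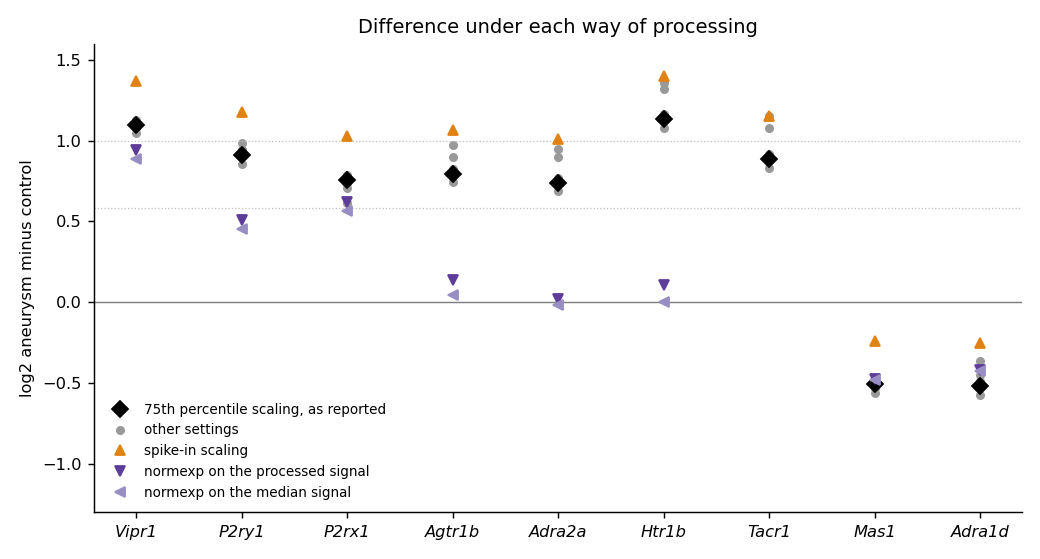
Log2 difference, aneurysm minus control (vertical axis), of 9 genes under 12 ways of processing (points); dotted lines mark 1.5-fold and 2-fold. Vipr1 stays between 0.89 and 1.37, while Agtr1b, Adra2a and Htr1b fall to near 0 with normexp, and Mas1 and Adra1d stay below 0 throughout.

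The ligands did not move as one group with their receptors. Of 34 listed ligands and ligand enzymes, 24 were measured, 12 above 0 and 12 below, with 1 at least 2-fold higher and 4 at least 2-fold lower (median 0.01). Tac1, the precursor of substance P, the ligand of TACR1, stood at 250.1% in the aneurysm library and 83.3% in the control (1.59 ± 0.07). The ligands of VIPR1 were both below 0, with Vip at -0.26 ± 0.39 and Adcyap1, which encodes PACAP, at -0.65 ± 0.16; Vip was at 0.0059 with spike-in scaling. Agt, the precursor of angiotensin II, stood at 625% in the aneurysm library and 1224% in the control (-0.97 ± 0.05). Npy, the ligand of NPY1R, stood at 96.3% in the aneurysm library and 197% in the control (-1.03 ± 0.03). Avp, which encodes vasopressin, stood at 1089% in the aneurysm library and 5910.1% in the control (-2.44 ± 0.02), the lowest of the list, while its receptor Avpr1a was at -0.04. The bradykinin precursors Kng1 and Kng2 were at -1.77 ± 0.34 and -1.62 ± 0.28, and as close copies their assignment is uncertain. Agt, Kng1 and Kng2 are made by liver, and Avp is a hypothalamic and pituitary peptide. The hepatocyte and pituitary lists were lower as given above, and the part of these tissues in the ligand differences was not tested.

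Of the other genes of nitric oxide and cyclic GMP, 24 of 25 were measured, 8 above 0 and 16 below (median -0.14). Nos3, the nitric oxide synthase of endothelium, had 9 spots on each array and stood at 156% in the aneurysm library and 106% in the control (0.57 ± 0.03). Ddah1, which degrades an inhibitor of nitric oxide synthase, stood at 81.4% in the aneurysm library and 126% in the control (-0.63 ± 0.07). Ppp1r12b, a regulatory subunit of myosin phosphatase, was at -0.67 ± 0.19, and Pde9a, a phosphodiesterase specific to cyclic GMP, at -0.60 ± 0.09. These 3 were lower and Nos3 higher under each way of processing. Among 21 of 32 other vasoactive receptors that were measured, 10 were above 0 and 11 below (median -0.05). Of these Htr2c, a serotonin receptor of brain and choroid plexus, was at 1.26 ± 0.48 by its brightest probe, but at -0.20 as the mean over its probes, so no direction is given. Tacr2, a receptor for neurokinin A, stood at 2.49% in the aneurysm library and 4.97% in the control. S1pr5, a sphingosine 1-phosphate receptor, was at -0.70 ± 0.29, and Adrb3, a beta adrenergic receptor, at -0.62 ± 0.42. Downstream, 29 of 30 genes of G protein and calcium signalling were measured (median -0.07). Of these, 0 were at least 1.5-fold higher and 1 at least 1.5-fold lower, the cyclic AMP phosphodiesterase Pde4d (-0.63 ± 0.10). Pde4d fell under 1.5-fold as the mean over its probes (-0.38) and with spike-in scaling (-0.36). It also did with normexp on the processed signal (-0.56) and on the median signal (-0.54). The next in size were Rgs4, which shortens G protein signals, at -0.55 ± 0.03, the adenylyl cyclase Adcy6 at -0.41 ± 0.19 and the G protein subunit Gnaq at -0.38 ± 0.17.

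**Figure D5:**
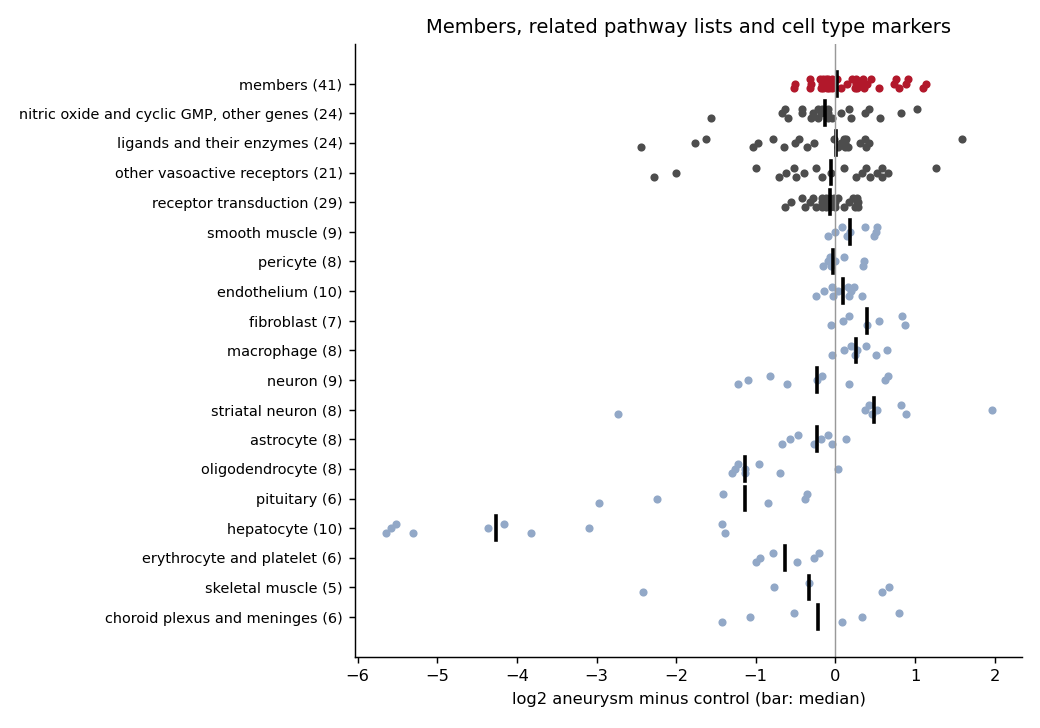
Log2 difference, aneurysm minus control (horizontal axis), of each measured gene (points) and the median (black bars) for the 41 vasoactive genes (red), 4 related pathway lists (dark grey) and 14 cell type marker lists (blue), with the number measured in brackets. The vasoactive genes reach from -0.52 to 1.14, a narrower range than the ligands, and the hepatocyte markers have a median of -4.27.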

How the data were processed

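Total RNA was extracted with a fibrous tissue kit and labelled for 1 colour, per the labels' protocols. What the authors deposited is scanner output (Feature Extraction 10.10.1.1, as its header states), and its processed spot intensity on a linear scale was used here. Both arrays lay on 1 slide, per the file headers. Deposited flags marked spots well above background, saturated or outlying. Of 58717 non-control spots, 76.4% in the aneurysm and 74.7% in the control library were well above background, and 0 were saturated; the number of arrays limits the precision.

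The intensity was divided by the 75th percentile of each array (801 in the aneurysm and 621 in the control library), outlier spots (573 and 484) were left out, and log2 values of the spots of a probe were averaged with numpy 2.4.6 and pandas 2.3.3. A probe passed the background flag where no more of its spots lacked the flag than carried it. Accessions without version were matched to RefSeq symbols of GRCr8, which named 18006 of 30367 probes; the array was designed on another build, so no array coordinates are used. Each gene took its brightest probe that passed on either array. Where 1 array did not pass, the brighter level was set against the dim level there, and called a bound. The lowest level well above background on that array took the place of a dimmer level. A bound that did not lie on the side of the passing array was left out, so the gene had no value. For Htr1b, Tacr1, Tacr3 and Drd1 the bound equals the measured difference. No bound is a strict limit, because a probe could fail the flag above that lowest level. Spot errors come from spot variances pooled in 20 bins of signal. The code was tested on simulated data. Alternatives were other scalings, normexp with an offset of 50 (limma 3.58.1; the planned mean signal column is not used here, so the processed signal was), filters and probe rules; normexp on the median signal was added after seeing the data.

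The genes and lists were chosen with earlier results of these data known. P2rx4, P2ry12, P2ry13 and P2ry14 were named outside the rule below, after their values were seen. The markers Acta2, Myh11, Pf4, Gp9, Tf, Ttr and Drd1 were also named outside that rule. The rule for named genes was every vasoactive gene, with full values from 1.5-fold up; up to 4 genes of each other list, by absolute difference, among genes that passed on both arrays; and the ligands of genes named with values.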

Additional observations from a re-analysis of the deposited data

How the results depend on the processing

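Over 12 ways of processing, 19 of the 41 genes kept their sign in every setting that gave a value, 14 of them higher and 5 lower. That split rests on spike-in scaling, which moves every gene up: without it 14 stayed higher and 15 lower, and relative to each setting's median of all genes 15 and 12 did. The settings are not independent. Some scalings shift all genes alike, and the filters and probe rules leave the value of many genes unchanged. Keeping a sign across them is therefore partly fixed in advance. The share of all genes that kept their sign is not given here. Of the 7 genes at least 1.5-fold higher, Vipr1, P2ry1, P2rx1 and Agtr1b stayed above 0 in all 12 settings. Adra2a was at -0.02 with normexp on the median signal. Htr1b had a value in 11 settings and Tacr1 in 9, all above 0. Both passed the background flag in the aneurysm library only, and such genes keep a value only above 0, except with no filter on dim genes. Outside that setting their sign was fixed in advance, yet both count among the 14 that stayed higher. The count of genes at least 1.5-fold higher was 12 with spike-in scaling (14.2% of all genes). It was 2 with normexp on the processed signal (0.985% of all genes) and 1 with normexp on the median signal (0.805%). The count at least 2-fold higher was 7 with spike-in scaling (2.33% of all genes). It was 0 with normexp on the processed signal (0.138%) and on the median signal (0.121%). With only probes well above background on both arrays, where Htr1b had no value, it was 1 (0.455%). With the scaling as reported, the count was 7 at a 1.5-fold threshold (4.25% of all genes) and 0 at 4-fold. With no filter on dim genes, 1 gene was at least 1.5-fold lower (Agtr2, which passed the background flag on neither array), beside 10.7% of all genes. The median was 0.29 with spike-in scaling, -0.10 with normexp on the processed signal and -0.11 with normexp on the median signal. Spike-in scaling put the median of all genes at 0.27, and the offset of normexp shrinks dim differences by construction. Htr2c reversed to -0.20 with the mean over its probes. Over all genes, the counts at least 2-fold higher and lower were 105 and 465. They were 279 and 343 with spike-in scaling, 167 and 405 with quantile normalization, 166 and 406 with loess centring, 16 and 213 with normexp on the processed signal, and 14 and 193 with normexp on the median signal. With no filter they were 183 and 756, and with probes passing on both arrays 51 and 237. No paired analysis was possible because each group has 1 array. Spot error limits the dim genes: it was 0.48 for Agtr1b and 0.08 for Vipr1.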

Other observations

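Outside the 45 genes, 4 related genes above background on 1 array only, chosen here after their values were seen, differed by 2-fold or more. Among receptors, the neurokinin B receptor Tacr3 was 4.84-fold lower in the aneurysm library (-2.27 ± 0.58), where it was not well above background, with levels of 1.19% in the aneurysm library and 5.76% in the control. The calcitonin receptor Calcr was 3.99-fold lower by its bound (-2.00 ± 0.54). Gucy2c, the guanylate cyclase receptor of guanylin, was 2.95-fold lower by its bound (-1.56 ± 0.48). Prkg2, the second cyclic GMP-dependent kinase, was 2.03-fold higher in the aneurysm library by its bound (1.02 ± 0.51). Its levels were 2.38% in the aneurysm library and 0.931% in the control. These bounds are no strict limits, because a probe could fail the flag above the lowest level that passed it. In the aneurysm library that lowest log2 level was -6.86, and Drd1 failed at -5.99. In the control library it was -6.41, and Htr1b failed at -5.74. Each rested on 2 spots per array, and their sources were not tested.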
